A study of Mus musculus with 7 samples.

Results

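Cohesin and condensin are ring-shaped protein complexes built on paired SMC ATPases, and the values of 10 of their genes in Eμ-Ret B-cell precursors are described here. The genes were taken by name from the table of 24341 genes, in which all 10 were listed. They are the cohesin core genes Smc1a, Smc3, Rad21, Stag1 and Stag2, the cohesin regulators Nipbl, Pds5a and Pds5b, and the condensin SMC genes Smc2 and Smc4. The rule is a list of names and sets no threshold on a value, but the list was drawn up with earlier results of these data known.

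Cohesin encircles sister DNA molecules from S phase until anaphase and also extrudes the loops that fold interphase chromosomes. NIPBL and MAU2 load the ring, WAPL with PDS5 releases it, and separase cuts RAD21 so that sister chromatids can part. Condensin compacts chromosomes for mitosis, and in developing B cells cohesin-made loops also bring distant immunoglobulin segments together for V(D)J recombination.

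Splenic B-cell precursors (BCP cells) were sorted for RNA from mice hemizygous for Eμ-Ret on a BALB/c background, a transgene in which the IgH enhancer drives an oncogenic Ret fusion gene. The labels give the cells of both groups as sorted by flow cytometry. There were 4 preleukemic samples, each of a young and healthy animal, and 3 leukemic samples of older mice that were moribund with overt disease. Every sample carries the transgene, so no wild-type level is part of the comparison, and age and disease state cannot be told apart. Mice of both sexes were used throughout the paper, which does not give the sex behind each RNA sample. The study compared the groups to find pathways that shift between preleukemia and leukemia, in a disease marked by extra chromosomes.

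RefSeq promoter windows were at hand for 6 members (Smc1a, Smc2, Smc3, Stag1, Pds5a and Pds5b). The windows below run from 120 bases before to 30 bases after the RefSeq gene start on GRCm38.p6, in the direction of transcription. All 6 are shown, because Smc1a, Smc2, Smc3 and Stag1 had their highest value in the same leukemic library, whereas the means of Pds5a and Pds5b were lower in the leukemic group. Capitals mark matches on either strand to the sequence CCAAT, to the E2F motifs TTTCCCGC or TTTGGCGC, or to the CHR element TTTGAA, all known from promoters of cell cycle genes.
Smc2, chr4:52439101-52439250, plus strand: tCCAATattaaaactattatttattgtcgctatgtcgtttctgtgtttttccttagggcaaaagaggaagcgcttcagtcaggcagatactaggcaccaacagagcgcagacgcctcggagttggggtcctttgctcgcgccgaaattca
Smc1a, chrX:152016308-152016457, plus strand: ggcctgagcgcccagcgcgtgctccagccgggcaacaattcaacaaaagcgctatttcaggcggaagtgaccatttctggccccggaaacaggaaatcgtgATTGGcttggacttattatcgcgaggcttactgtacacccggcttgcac
Smc3, chr19:53600276-53600425, plus strand: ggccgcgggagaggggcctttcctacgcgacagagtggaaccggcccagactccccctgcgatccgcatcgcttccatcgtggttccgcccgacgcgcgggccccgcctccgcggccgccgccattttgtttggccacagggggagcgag
Stag1, chr9:100643328-100643477, plus strand: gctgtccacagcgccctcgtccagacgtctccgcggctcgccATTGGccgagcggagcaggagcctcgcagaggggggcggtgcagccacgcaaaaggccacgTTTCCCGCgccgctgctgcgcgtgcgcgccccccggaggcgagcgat
Pds5a, chr5:65698207-65698356, minus strand: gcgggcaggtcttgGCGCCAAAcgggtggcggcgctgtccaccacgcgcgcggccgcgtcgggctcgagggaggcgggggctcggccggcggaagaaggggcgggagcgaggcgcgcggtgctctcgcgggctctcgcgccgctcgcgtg
Pds5b, chr5:150673707-150673856, plus strand: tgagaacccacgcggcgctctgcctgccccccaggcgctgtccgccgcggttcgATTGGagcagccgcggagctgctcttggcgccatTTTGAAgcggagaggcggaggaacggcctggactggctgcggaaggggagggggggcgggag
Over windows of 250 bases before to 50 bases after the start, an E2F match lay in 3 of the 6 member windows (Stag1, Pds5a and Smc1a) and in 1.56% of all 32851 windows. The match of Smc1a begins at base 38 of the gene and is not printed. A CCAAT match lay in 4 of the 6 windows (Smc2, Smc1a, Stag1 and Pds5b) and in 37.4% of all windows, and a CHR match lay in 2 (Smc2 and Pds5b) and in 17.9% of all. The CHR matches of Smc2, on the reverse strand, begin 145 bases before the start and at base 27 of the gene, outside or across the edge of the printed stretch. A further CCAAT match of Pds5b, on the reverse strand, begins at base 37 of the gene and is not printed. None of the matches overlapped another. No search motif was found in the window of Smc3. These are matches of letters, not measured binding sites.

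Values are FPKM, fragment numbers divided by the length of the transcript and the depth of the library, so levels can be compared between genes. The depth read from the low values was 13500000 to 16100000 fragments per sample, on the assumption that it lay between 8000000 and 20000000, since multiples of a depth also give whole steps. At these depths the fewest fragments behind any member value came to about 2495, a counting error of 2.0%. Over the 12 B-cell precursor markers, which include the gene of the sorted antigen BP-1 (Enpep), the summed level was 3712 to 5657 FPKM in the leukemic and 7462 to 9422 FPKM in the preleukemic samples, with 0 called higher and 4 called lower, beside 8.47% and 6.26% of all genes tested. The lowest sum was in leukemic replicate 1, where Enpep was at 19.1 FPKM, against 102.3 and 77.2 FPKM in leukemic replicates 2 and 3 and 134.1 to 210.2 FPKM in the preleukemic samples. Pax5 and Dntt were lowest in leukemic replicate 2, and Vpreb1, Igll1 and Blnk in leukemic replicate 3. All 11 red cell precursor markers listed were called higher in the leukemic samples. They summed to 4777, 23279 and 11326 FPKM in leukemic replicates 1 to 3. In preleukemic replicates 1 to 4 they summed to 2209, 171, 193 and 215 FPKM. Also called higher were 6 of 9 macrophage markers tested (44.6 to 231 against 10.9 to 19.4 FPKM for 10 listed). So were 4 of 9 neutrophil markers (1417 to 1754 against 149 to 865 FPKM). The 9 T and NK cell markers listed summed to 12.3 to 68.5 against 13.2 to 18.8 FPKM, and none of the 7 tested was called. No listed marker was at the floor of 0.01 in every sample. Their part in the member values was not tested, and in bulk RNA fewer cells of a type and less RNA per cell cannot be told apart.

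In preleukemic BCP cells the 10 genes were expressed at means of 35.6 to 132 FPKM. Rad21, the kleisin that closes the cohesin ring, had the highest mean (132 ± 12.8 FPKM, SD, n = 4), and Smc4 of condensin followed (130 ± 19.9 FPKM). The sample ranges of these overlapped. Smc1a came next at 91.2 ± 8.35 FPKM, below every value of Rad21 and Smc4, and its range overlapped that of Stag2 (84.3 ± 5.12 FPKM). Pds5a (70.3 ± 3.14 FPKM), then Smc3 (57.6 ± 2.82 FPKM), then Nipbl (47.2 ± 3.80 FPKM) each lay below all samples of the gene before. Nipbl, Smc2 (42.3 ± 7.88 FPKM), Pds5b (40.5 ± 2.68 FPKM) and Stag1 (35.6 ± 5.21 FPKM) overlapped with their neighbours in this order.

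None of the 10 genes was called between the groups. The test was limma on log2(FPKM + 1) over the 10541 genes whose FPKM added up to 10 or more, all 10 members among them, with Benjamini-Hochberg adjusted p under 0.05 as the call. It called 14.7% of the genes tested, 1553 in all, of which 893 (8.47%) were higher and 660 (6.26%) lower in the leukemic group. With quantile normalization the split was 754 higher and 907 lower. The calls fell to 932, 443, 271 and 149 without preleukemic replicates 1, 2, 3 and 4 in turn. At an unadjusted p under 0.05, limma picked 1 of the members (Pds5b) and 3586 of all genes. The fitted log2 fold changes of the members, leukemic minus preleukemic, ran from -0.31 to 0.37 with a median of 0.11, beside a median of -0.02 over all genes tested. On simulated data, 120 of 200 genes changed by a log2 of 1 were recovered. Changes as small as those of the members were not simulated, so this count does not give the share recovered at their size.

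**Figure D1:**
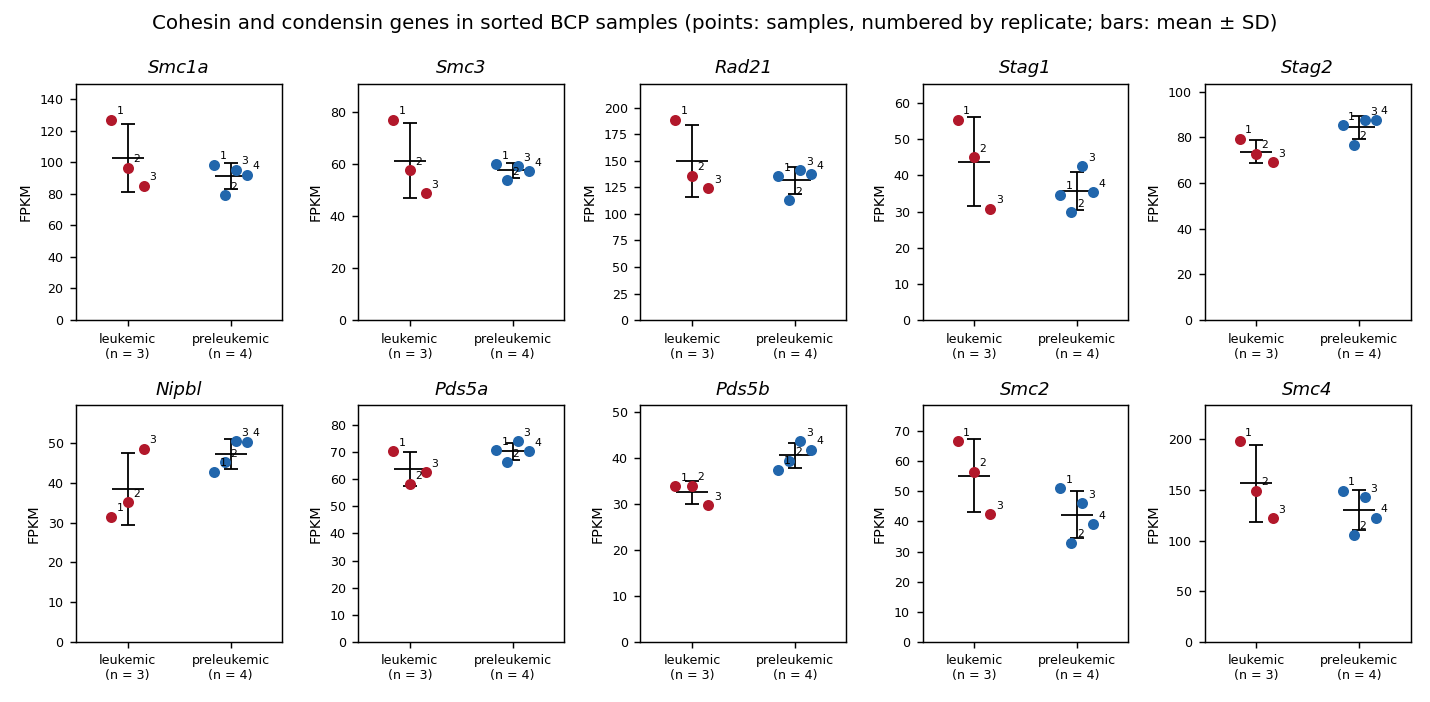
FPKM (y axis, from 0) of the 10 cohesin and condensin genes in each sample, with points numbered by replicate (leukemic red, n = 3; preleukemic blue, n = 4) and bars for the mean ± SD. Only Pds5b has no overlap between the groups, and leukemic replicate 1 is the highest sample for Smc1a, Smc3, Rad21, Stag1, Smc2 and Smc4.

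The ring subunits Smc1a, Smc3 and Rad21 were not called, and all were highest in the same leukemic library. Smc1a (chrX:152016428-152061973), which pairs with Smc3 through its hinge, was at 126.9, 96.6 and 85.2 FPKM in leukemic replicates 1 to 3 and at 98.3, 79.2, 95.1 and 92.1 FPKM in preleukemic replicates 1 to 4. Smc3 (chr19:53600396-53645831), the partner whose acetylation locks the ring, was at 77.1, 57.7 and 48.9 FPKM against 60.0, 53.7, 59.2 and 57.3 FPKM. Rad21 (chr15:51962604-51991760) was at 188.8, 136.2 and 124.4 FPKM against 135.8, 112.9, 141.1 and 137.3 FPKM. In all 3 genes leukemic replicate 1 lay above every other sample, while leukemic replicates 2 and 3 lay within or below the preleukemic range. The log2 fold changes were 0.16 (SE 0.15) for Smc1a, 0.06 (SE 0.15) for Smc3 and 0.17 (SE 0.16) for Rad21, with adjusted p of 0.467, 0.785 and 0.473 by limma. Without leukemic replicate 1 they were -0.0022, -0.11 and -0.01, so the sign of each rested on that library.

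STAG1 and STAG2 are alternative subunits that bind the ring, STAG1 being tied more to telomeres and to sites held with CTCF, and STAG2 being a gene mutated in myeloid and solid tumours. Stag1 (chr9:100643623-100958544) was at 55.4, 45.1 and 30.8 FPKM in the leukemic samples and at 34.6, 29.8, 42.5 and 35.4 FPKM in the preleukemic samples. Leukemic replicates 1 and 2 were the highest samples, and leukemic replicate 3 was the second lowest. Stag2 (chrX:42149412-42277186) was at 79.3, 72.8 and 69.1 FPKM against 85.3, 76.8, 87.4 and 87.7 FPKM. Leukemic replicate 1 and preleukemic replicate 2 overlapped, and the other leukemic values were below all preleukemic ones. By limma the log2 fold change was 0.26 (SE 0.20, adjusted p = 0.386) for Stag1 and -0.19 (SE 0.08, adjusted p = 0.156) for Stag2.

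Among the regulators, Pds5b came nearest to a call. PDS5A and PDS5B are alternative proteins that hold either the release factor WAPL or the protector sororin on the ring. Pds5b (chr5:150673827-150810669) was at 33.8, 33.9 and 29.6 FPKM in the leukemic and at 37.4, 39.3, 43.5 and 41.7 FPKM in the preleukemic samples. It was the only member whose groups did not overlap, a pattern that 32.0% of the genes tested showed in either direction. Its mean was 32.4 ± 2.45 against 40.5 ± 2.68 FPKM, a log2 fold change of -0.31 (SE 0.09, 95% interval -0.52 to -0.11, limma adjusted p = 0.0544). The adjusted p was 0.0322 with quantile normalization and 0.0496 when each sample was centred on its median. In the other 13 of 15 alternatives Pds5b was not called. Its adjusted p was 0.0780 with centring on the median of each chromosome and 0.0659 to 0.148 with 1 sample left out. With a block for the replicate number it was 0.245. Pds5a (chr5:65615260-65697856) was at 70.5, 58.3 and 62.6 FPKM against 70.7, 66.3, 74.0 and 70.4 FPKM, with leukemic replicate 1 inside the preleukemic range and the other leukemic values below it. Its log2 fold change was -0.14 (SE 0.09, adjusted p = 0.283).

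Nipbl (chr15:8289824-8444463), the cohesin loader whose human gene is mutated in Cornelia de Lange syndrome, was at 31.5, 35.1 and 48.6 FPKM in the leukemic and at 42.8, 45.2, 50.4 and 50.3 FPKM in the preleukemic samples. Leukemic replicates 1 and 2 lay below every preleukemic sample, and leukemic replicate 3 lay among them. The log2 fold change was -0.31 (SE 0.15, limma adjusted p = 0.192). Without leukemic replicate 3 it was -0.49, with an adjusted p of 0.0378. It was -0.18 without leukemic replicate 1 (adjusted p = 0.428) and -0.26 without leukemic replicate 2 (adjusted p = 0.336). The adjusted p was 0.209 to 0.351 with 1 preleukemic replicate left out.

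The condensin SMC genes had higher leukemic means without a call. Smc2 (chr4:52439221-52488365) was at 66.6, 56.5 and 42.5 FPKM against 51.0, 33.0, 46.0 and 39.1 FPKM, and Smc4 (chr3:69004972-69034623) was at 198.0, 149.4 and 122.3 FPKM against 149.4, 105.7, 143.1 and 122.6 FPKM. These genes encode the SMC partners shared by condensin I and condensin II. In both, leukemic replicate 1 was highest and preleukemic replicate 2 lowest, and leukemic replicate 3 was at or under the middle of the preleukemic values. The log2 fold change was 0.37 (SE 0.19, adjusted p = 0.213) for Smc2 and 0.25 (SE 0.19, adjusted p = 0.369) for Smc4 by limma. Smc4 also hosts the miRNA genes Mir15b and Mir16-2 on its strand, which its FPKM cannot separate.

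**Figure D2:**
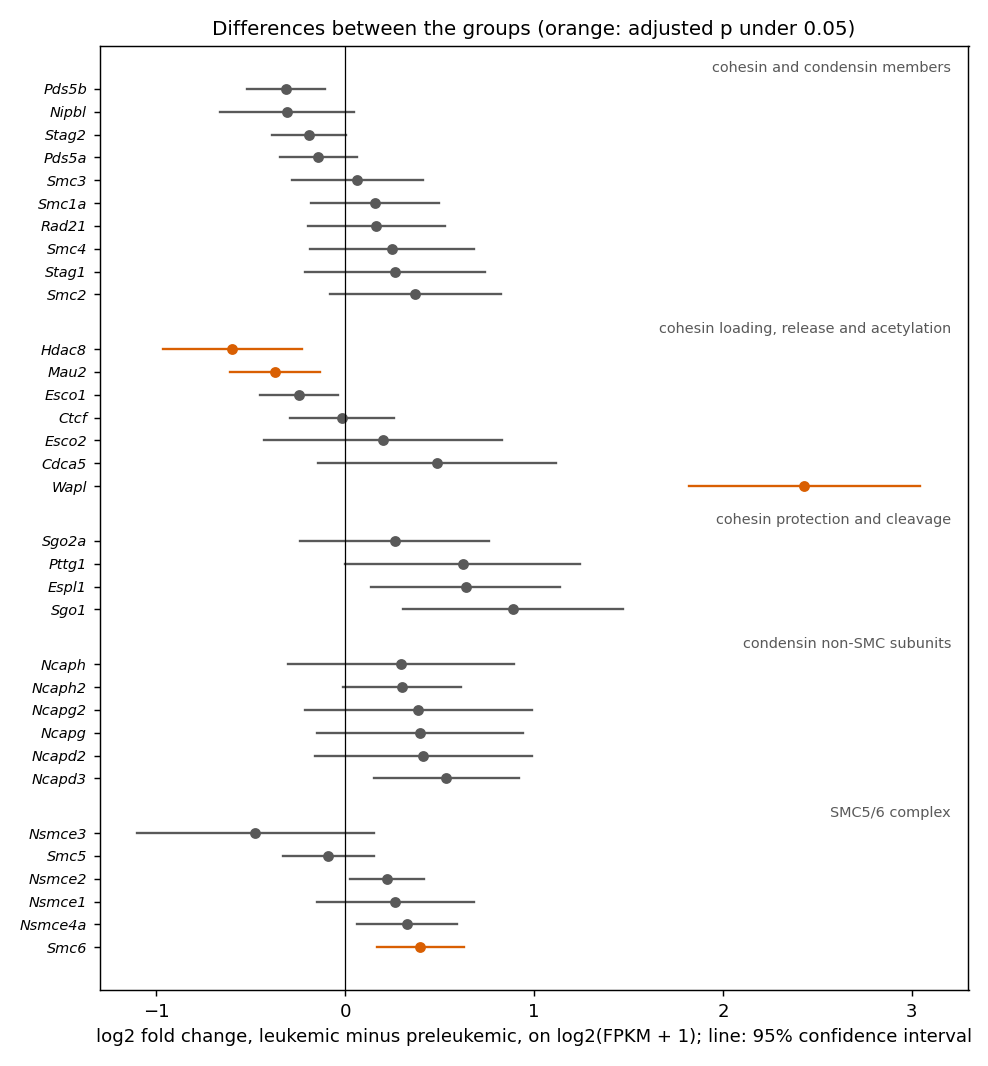
Log2 fold change (x axis, leukemic minus preleukemic, on log2(FPKM + 1)) with its 95% confidence interval for the 10 members and for the other cohesin, condensin and SMC5/6 genes tested, grouped by list. Called genes are orange: Wapl, Hdac8, Mau2 and Smc6, and none of the 10 members.

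The spread between samples was wider in the leukemic group for all 10 members, as measured by the SD of log2(FPKM + 1), and for 73.8% of all genes tested. Coefficients of variation ran from 6.98% (Stag2) to 28.2% (Stag1) in the leukemic group and from 4.47% (Pds5a) to 18.6% (Smc2) in the preleukemic group. Leukemic replicate 1 was the highest of the 7 samples for 6 of 10 members, against 26.1% of all genes tested. Preleukemic replicate 2 was the lowest for 5 of 10 members (Smc1a, Rad21, Stag1, Smc2 and Smc4), against 16.9% of all genes. Nipbl went the other way, with leukemic replicate 1 as its lowest sample.

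The same libraries stood out for the proliferation markers. Of these 12 genes, leukemic replicate 1 was highest for 11 and preleukemic replicate 2 was lowest for 12, and their summed level was 2160, 1687 and 1209 FPKM in leukemic replicates 1 to 3 and 1391, 828, 1270 and 1110 FPKM in preleukemic replicates 1 to 4. Of the 12, only Mki67, the gene of the Ki-67 antigen, was called (log2 fold change 0.74, limma adjusted p = 0.0316), beside 14.7% of all genes tested. All 12 had a fitted value above 0, with a median of 0.62. Smc4 and the summed markers shared their highest sample, leukemic replicate 1, and their lowest, preleukemic replicate 2. The part of proliferation in the member values was not tested.

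**Figure D3:**
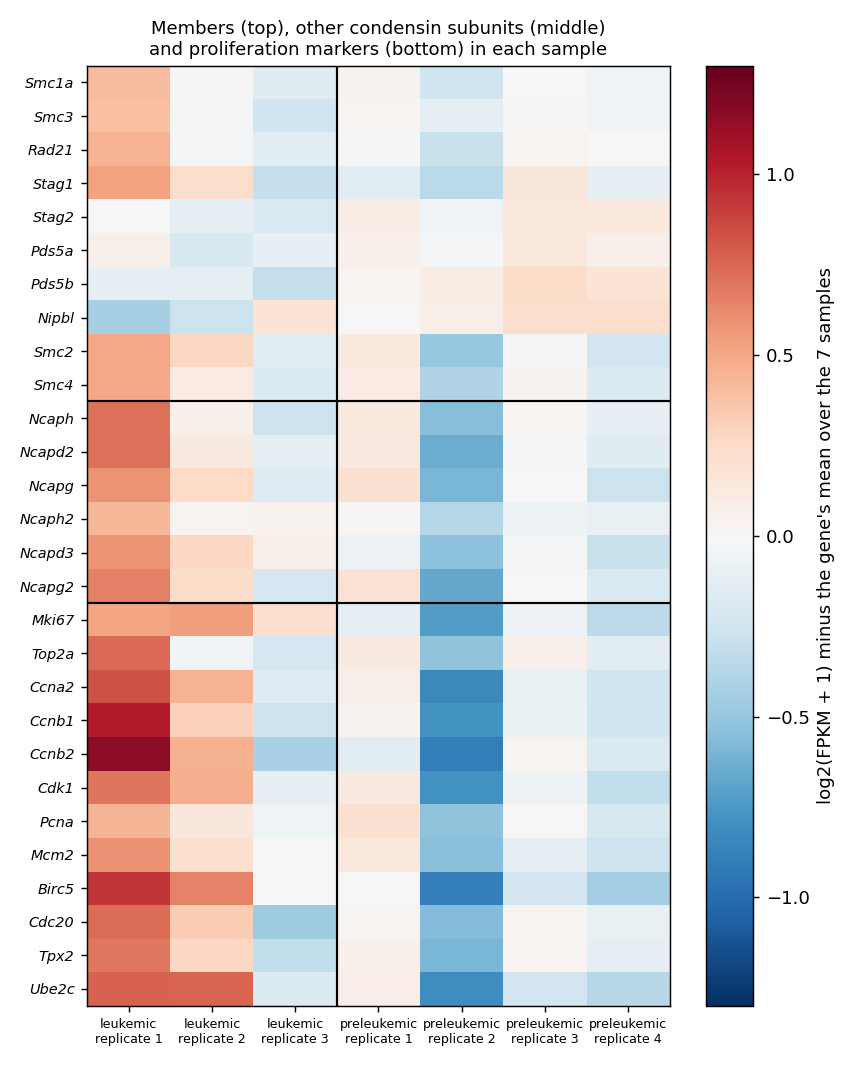
Deviation of log2(FPKM + 1) from each gene's mean over the 7 samples (colour, red above and blue below) for the 10 members, the 6 other condensin subunits and the 12 proliferation markers, with samples in columns. Leukemic replicate 1 is red for Smc1a, Smc3, Rad21, Stag1, Smc2 and Smc4 and for all genes of the lower blocks, pale red for Pds5a, near 0 for Stag2 and blue for Pds5b and Nipbl.

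The genes most like the members over the 7 samples were sought among 8776 others with a mean of at least 5 FPKM, by Pearson's r of log2(FPKM + 1). For Smc1a they were Bub1b (r = 0.999), Foxm1 (0.994) and Ncaph (0.994), and for Smc2 they were Ncapg (0.996), Mrpl42 (0.995) and Gen1 (0.993). Bub1b encodes a spindle checkpoint kinase, Foxm1 a transcription factor of mitotic genes, and Ncaph and Ncapg condensin I subunits. For Smc4 they were Casc5 (0.997), Aspm (0.991) and Arhgef39 (0.991), for Smc3 Hnrnpd (0.997), Ube2l3 (0.993) and Rbl1 (0.986), and for Rad21 Cep162 (0.990), Ubr7 (0.986) and Vps26a (0.985). With 7 points that share libraries and depth, such values are descriptions, and between 186 (Smc3) and 383 (Smc4) genes passed an r of 0.9.

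Paired subunits were compared by the log2 ratio of their FPKM within each sample, by an exact two-sided permutation test on all 35 choices of 3 leukemic samples out of 7 (smallest p 0.0286). None of the 4 ratios was under 0.05, unadjusted or adjusted over the 4. With so few choices, 1 ratio at the smallest p could not by itself have passed after that adjustment. Stag2 exceeded Stag1 in every sample, 1.43, 1.61 and 2.24 times in the leukemic and 2.46, 2.57, 2.06 and 2.48 times in the preleukemic samples, a log2 difference of -0.46 (exact p = 0.0857, adjusted over 4 ratios p = 0.114). Leukemic replicates 1 and 2 lay below all preleukemic samples and leukemic replicate 3 lay among them. Pds5a exceeded Pds5b 2.09, 1.72 and 2.12 times against 1.89, 1.69, 1.70 and 1.69 times, with a log2 difference of 0.18 (exact p = 0.171, adjusted p = 0.171) and leukemic replicate 2 inside the preleukemic range.

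The ratio of Smc3 to Smc1a was 0.608, 0.597 and 0.574 in the leukemic and 0.611, 0.678, 0.623 and 0.622 in the preleukemic samples. The leukemic values were all lower, though the gap between leukemic replicate 1 and preleukemic replicate 1 was small, and the log2 difference was -0.09 (exact p = 0.0571, adjusted p = 0.114). The ratio of Smc4 to Smc2 was 2.97, 2.65 and 2.88 against 2.93, 3.20, 3.11 and 3.14, a log2 difference of -0.13 (exact p = 0.0857, adjusted p = 0.114). Leukemic replicate 1 overlapped the preleukemic samples. Smc3 and Smc1a thus differed less in their ratio (0.574 to 0.678) than Smc1a did in its level (79.2 to 126.9 FPKM) over the 7 samples.

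**Figure D4:**
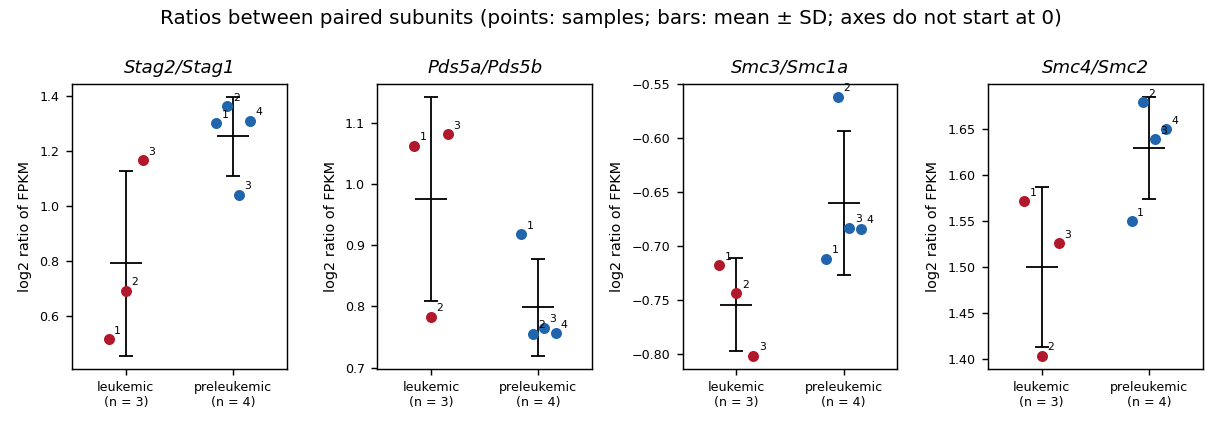
Log2 ratio of FPKM (y axis, not from 0) between paired subunits in each sample, with points numbered by replicate (leukemic red, n = 3; preleukemic blue, n = 4) and bars for the mean ± SD. Groups overlap for Stag2/Stag1, Pds5a/Pds5b and Smc4/Smc2, and for Smc3/Smc1a the leukemic points are lower with a small gap.

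Extra chromosomes are a feature of this disease, so each member was set beside the other genes of its chromosome, by the median deviation of genes with a mean of at least 5 FPKM from the preleukemic mean, less that of all chromosomes. Chromosome 9, which carries Stag1, stood at 0.33, 0.28 and 0.10 in leukemic replicates 1 to 3 (495 genes) and at -0.04, -0.05, 0.09 and 0.01 in preleukemic replicates 1 to 4. Stag1 was likewise highest in leukemic replicates 1 and 2, and among preleukemic samples in replicate 3. With each sample centred on the median of every chromosome, an alternative added after the data were seen, the log2 fold change of Stag1 was 0.05 (SE 0.15) in place of 0.26.

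Chromosome 15, which carries Rad21 and Nipbl, stood at 0.20 in leukemic replicate 3 and at -0.02 and -0.01 in leukemic replicates 1 and 2 (343 genes). Nipbl was highest among the leukemic samples in replicate 3 and Rad21 was lowest there. After the chromosome centring, the log2 fold changes were -0.35 for Nipbl (adjusted p = 0.0945) and 0.12 for Rad21. The chromosomes of the other members (3, 4, 5, 19 and X) stayed between -0.054 and 0.0038 in every leukemic sample, and 0 of the 10 members were called after this centring. The part of chromosome number in any member value was not tested.

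The called genes of the pathway lay among the cohesin regulators and in the SMC5/6 complex. Of the 7 genes for cohesin loading, release and acetylation, 1 rose and 2 fell, beside the 14.7% of all genes tested that were called. Wapl (listed as Wapal, chr14:34673928-34747983), the release factor that opens the ring, was at 33.6, 18.1 and 23.9 FPKM in the leukemic and at 5.70, 2.60, 3.82 and 3.25 FPKM in the preleukemic samples. Every leukemic value exceeded 3 times the highest preleukemic one, and the mean rose from 3.84 ± 1.33 to 25.2 ± 7.86 FPKM. The log2 fold change was 2.43 (SE 0.26, limma adjusted p = 0.00734) and stayed at 2.46 after chromosome centring, and the gene was called with each sample left out in turn.

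Mau2 (chr8:70016123-70042734), the partner of Nipbl in the loader, was at 19.5, 20.7 and 24.8 FPKM against 26.4, 29.5, 27.4 and 29.5 FPKM. Hdac8 (chrX:102284640-102505148), which removes the acetyl group from SMC3, was at 13.8, 17.0 and 21.6 FPKM against 23.9, 24.8, 27.0 and 30.7 FPKM. Both were lower in every leukemic sample, and both fell by limma, with log2 fold changes of -0.37 (SE 0.10, adjusted p = 0.0491) and -0.60 (SE 0.16, adjusted p = 0.0449). In both genes and in Nipbl, leukemic replicate 3 was the highest leukemic sample and replicate 1 the lowest. The calls of Mau2 and Hdac8 were near the threshold: each was lost without leukemic replicate 1 or 2 or without any 1 preleukemic replicate, with adjusted p up to 0.139 for Mau2 and 0.124 for Hdac8. Both were also lost after chromosome centring (adjusted p of 0.0811 for Mau2 and 0.0694 for Hdac8), without the filter (0.0920 and 0.117) and without the trend (0.0580 and 0.0522). The insulator protein gene Ctcf (92.8 ± 15.6 against 93.0 ± 5.24 FPKM) and the sororin gene Cdca5 (33.3 ± 12.8 against 22.9 ± 5.06 FPKM) were not called, with adjusted p of 0.940 and 0.241.

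**Figure D5:**
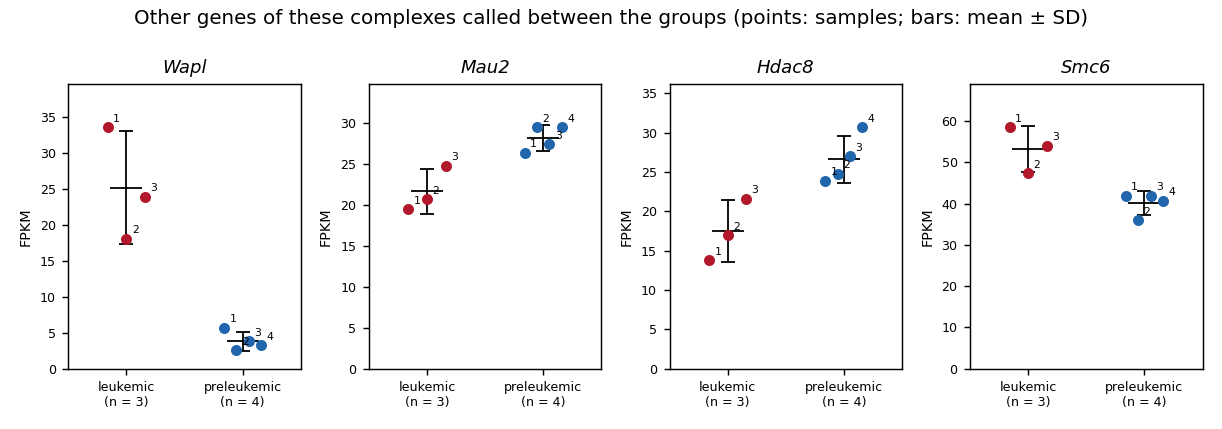
FPKM (y axis, from 0) of Wapl, Mau2, Hdac8 and Smc6 in each sample, with points numbered by replicate (leukemic red, n = 3; preleukemic blue, n = 4) and bars for the mean ± SD. The groups do not overlap in any of these 4 called genes, and the gap is widest for Wapl. Groups without overlap were seen in 32.0% of all genes tested.

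Of the 6 genes of the SMC5/6 complex, a relative of cohesin that acts in DNA repair and replication, 1 rose and the others were not called, a share near the 14.7% of all genes tested that were called. Smc6 (chr12:11265886-11319785) was at 58.5, 47.4 and 54.0 FPKM in the leukemic and at 41.9, 36.0, 41.9 and 40.7 FPKM in the preleukemic samples. Its groups did not overlap, as for 32.0% of all genes tested in either direction. Its log2 fold change was 0.40 (SE 0.10, limma adjusted p = 0.0383), and the adjusted p ran up to 0.104 without 1 replicate, the call being lost without each replicate other than leukemic replicate 2. It was also lost with quantile normalization (adjusted p = 0.0560) and without the filter (adjusted p = 0.0778), and was kept after chromosome centring (adjusted p = 0.0348). Nsmce4a (119 ± 18.9 against 94.4 ± 5.93 FPKM, adjusted p = 0.0926) and Nsmce1 (63.2 ± 15.6 against 51.8 ± 7.35 FPKM, adjusted p = 0.318) were the most abundant of the complex. Fgfr2 overlaps Nsmce4a on the same strand in the annotation.

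None of the 6 non-SMC subunits of condensin was called, beside 14.7% of all genes tested. Their limma adjusted p was 0.0677 to 0.434, and their fitted log2 fold changes ran from 0.30 to 0.54 with a median of 0.39. Leukemic replicate 1 was the highest and preleukemic replicate 2 the lowest sample in all 6, as for Smc2 and Smc4. Ncapd2 of condensin I was at 71.6 ± 22.9 against 52.8 ± 11.5 FPKM and Ncaph2 of condensin II at 74.6 ± 12.2 against 60.2 ± 6.72 FPKM. None of the 4 genes for cohesin protection and cleavage was called, beside the same 14.7%, with a median log2 fold change of 0.63. At that share, lists of 4 or 6 genes can hold no call without differing from all genes. Sgo1 (listed as Sgol1, on chromosome 17), the shugoshin that shields centromeric cohesin, was at 30.6, 23.0 and 16.4 FPKM against 13.9, 8.35, 14.9 and 11.0 FPKM. The groups did not overlap, as for 32.0% of all genes tested in either direction. The log2 fold change was 0.89 (SE 0.25, limma adjusted p = 0.0537), against 0.53 after chromosome centring, where chromosome 17 stood at 0.37, 0.37 and 0.40 in the leukemic samples. Without leukemic replicate 3 it was 1.11, with an adjusted p of 0.0405. With any other sample left out, the adjusted p was 0.0799 to 0.143. Pttg1, the securin gene that holds separase inactive, was at 100.2 ± 23.7 against 65.6 ± 17.9 FPKM (adjusted p = 0.147). The 4 meiotic cohesin genes (Smc1b, Rec8, Stag3 and Rad21l) were under the filter on low values, and Rad21l was at the floor of 0.01 in all 7 samples.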

How the data were processed

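The authors sequenced stranded mRNA libraries of 7 sorted BCP samples. The deposited table holds 1 FPKM value per gene and sample, made by the authors before deposit. The submitters' processing notes list STAR 2.5.0b, Cufflinks 2.2.1, bedtools 2.17.0, Bowtie and DESeq2 and the build mm10, without their roles. The count model of the study's methods needs counts and was not applied. Its filter on a sum under 10 was taken over for FPKM, which left 10541 of 24341 genes.

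Group differences were fitted with R 4.3.3 and limma 3.58.1 on log2(FPKM + 1) (lmFit, eBayes with trend, no covariates) and adjusted over all genes tested. A pseudocount of 1 understates the change of low genes. Ratios, medians per chromosome, likeness and motif searches used numpy 2.4.6 and pandas 2.3.3 in Python 3.11.15, and figures with matplotlib 3.10.9. Depth was estimated from the low values of 2211 genes with 1 transcript, which step in multiples of 1 fragment; 79.1% to 85.3% of the low values lay within 0.15 of a whole fragment at the depth chosen between 8000000 and 20000000 fragments. The counting error covers counting only and assumes a fragment length of 200 bases and the longest coding transcript. Any 2 samples had at most 1 value above the floor in common. Positions are those deposited, with 1 added to the start: of 23138 symbols found in RefSeq for GRCm38.p6, 99.5% were on the same chromosome and 51.2% then had an equal start, against 2.94% as listed.

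The members, gene lists and tests were chosen with earlier results of these data known. Named are all 10 members, each called gene of the other cohesin, condensin and SMC5/6 lists, the 2 genes of each with the highest mean FPKM, and for 5 members the 3 most alike genes. Mki67 was named after its values were seen. The B-cell precursor markers Enpep, Pax5, Dntt, Vpreb1, Igll1 and Blnk and the meiotic cohesin genes were also named outside this rule. Tested on simulated data (10541 genes), the fit behaved as follows: 120 of 200 genes changed by a log2 of 1 and 174 of 200 changed by a log2 of 2 were recovered, with 6 and 11 false calls. Alternatives were a pseudocount of 0.1, no filter, an FPKM sum of at least 70, quantile normalization, centring by sample or (added later) by chromosome, no trend, a replicate block and leaving out each sample.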

Additional observations from a re-analysis of the deposited data

Results flagged for a closer look

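Of 26 values examined for a sample apart in the 4 preleukemic samples, 1 had a sample far from the rest. The log2 ratio of Pds5a to Pds5b was 0.918 in preleukemic replicate 1, the highest of the 4, and the gap to the next sample took up most of the group's range. About 1 in 20 such groups would be picked by chance. Groups of 3, such as the leukemic samples, were not examined in this way.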

How the results depend on the processing

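The count of 1553 genes was 706 without the filter and 951 with an FPKM sum of at least 70. With a replicate block it was 0 by limma, with 2429 genes at an unadjusted p under 0.05, and Wapl then had an adjusted p of 0.0689. The replicate numbers did not pair the samples (correlations of 0.03, 0.05 and -0.09 between same-numbered samples), and the block leaves preleukemic replicate 4 without weight. The count was 149 to 1620 with 1 sample left out. The members called numbered 1 (Pds5b) with quantile normalization and 1 with centring on the sample median, and 0 to 1 with 1 sample left out. Of 330 log2 fold changes of named genes under the alternatives, 287 kept direction and side of the threshold, 30 lost a call (Mau2, Hdac8, Smc6 and, with the block, Wapl), 4 gained one and 9 changed sign. The sign changed for Ctcf, at 0.0018 with the block, 0.038 with chromosome centring and -0.14 to 0.089 with 1 sample left out, and for Smc1a (-0.0022 to 0.28), Smc3 (-0.11 to 0.21) and Rad21 (-0.012 to 0.29) with 1 sample left out. The 36 values of the ratios kept direction. All stayed above the threshold, but those with 1 sample left out could not have passed it. Their exact p cannot go below 0.0667 without 1 leukemic replicate or below 0.1 without 1 preleukemic replicate. The ranges with 1 sample left out were -0.65 to -0.33 for Stag2/Stag1, 0.12 to 0.27 for Pds5a/Pds5b, -0.11 to -0.06 for Smc3/Smc1a and -0.16 to -0.08 for Smc4/Smc2. Where not given, the cause was not tested. The counting error of a member value was at most 2.0% at the depths inferred, and other sources of technical error were not measured.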
